A study of Mus musculus with 6 samples.

Results

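The genes described here are 10 inhibitory G-protein-coupled receptors of sensory neurons, chosen by name: the opioid receptors Oprm1 (mu), Oprd1 (delta) and Oprk1 (kappa), the nociceptin receptor Oprl1, the galanin receptor Galr1, the neuropeptide Y receptors Npy1r and Npy2r, the cannabinoid receptor Cnr1, and the GABA-B receptor subunits Gabbr1 and Gabbr2. Of these 10 genes, 9 were named on a probe set, with 22 probe sets in all, out of 18193 named genes and 45037 probe sets on the array. Gabbr2 had no probe set by symbol, so only its promoter is covered here. Mouse dorsal root ganglion neurons had been pooled by title code (3) and size class (2), and the RNA of each of the 6 pools hybridised to 1 Affymetrix expression array. The L6-R and L3-S pools, big diameter and medium to small diameter, each held 20 neurons labelled with DiI, a membrane dye transported along axons to the soma. The L3-B pools of the same size classes held 50 control neurons each. In comparisons with L3-B, the DiI label and the pool size cannot be told apart. The labels used here do not explain the codes, say where DiI was applied, or tell whether pools came from separate animals, and they name no strain, age or genotype. The p-values therefore measure only the spread between these pools that additive terms for code and size class leave. That spread may be technical, or hold code differences that depend on size class.

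All 10 receptors are coupled to G proteins of the Gi/o class or, for Gabbr1, act in a heterodimer that is. When such a receptor is bound by its ligand, the Gi/o alpha subunit inhibits several adenylyl cyclases, while the freed beta-gamma dimer closes presynaptic calcium channels and opens inwardly rectifying potassium channels. In sensory neurons this lowers transmitter release at the central terminals, and it is the route by which opioids, cannabinoids and baclofen reduce pain signalling. Neuropeptide Y and galanin are known for their strong induction in sensory neurons after axon injury, and both act on receptors of this group.

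Signals are the linear values of the deposited table, and each pair of values under a code is that of its big pool and its medium to small pool. Signals under 32 lie near the background of such arrays, and 55.3% to 59.5% of an array's probe sets were there. Differences are those of log2(signal + 32), which shrinks differences of low signals. Each is given ± its standard error (SE), from limma with code and size class as terms over all 6 arrays. Adjusted p-values are over all genes tested, and the number of arrays limits the precision. Nefh, the heavy neurofilament of neurons, had signals of 7766 to 12609. The arrays also carried RNA of other cells. The summed signal of 15 satellite glia and Schwann cell markers was 17927 and 23637 in L6-R, 14884 and 18894 in L3-S, and 13889 and 12540 in L3-B, and that of 13 blood and immune cell markers was 172 to 448, with Ptprc at 2 to 18 and Cd68 at 3 to 22. The ratio of 3' to 5' Actb signal was 8.31 and 8.42 in L6-R, 5.42 and 12 in L3-S, and 13.9 and 3.73 in L3-B, so both extremes were L3-B arrays. In pooled neurons, fewer cells of a type and less RNA per cell cannot be told apart.

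The promoters of the neuropeptide Y receptors are shown because these receptors had the largest differences between codes among the 9. The 250 bases before the annotated start of each gene are given 5′ to 3′ on the gene's strand, from RefSeq on build GRCm38.p6, at chr8:66697172-66697421 on the plus strand for Npy1r and chr3:82548086-82548335 on the minus strand for Npy2r. Capitals mark matches, on either strand, to any of 5 motifs searched: the cAMP response element TGACGTCA, its core TGACG, the AP-1 site TGANTCA, the GC box GGGCGG and the TATA box TATAAA. Matches to the core include those inside the full element.
Npy1r: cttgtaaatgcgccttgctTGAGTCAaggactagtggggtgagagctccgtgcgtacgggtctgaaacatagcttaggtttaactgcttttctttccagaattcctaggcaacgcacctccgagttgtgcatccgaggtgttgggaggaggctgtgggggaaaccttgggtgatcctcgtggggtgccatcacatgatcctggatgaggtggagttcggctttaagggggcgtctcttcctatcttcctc
Npy2r: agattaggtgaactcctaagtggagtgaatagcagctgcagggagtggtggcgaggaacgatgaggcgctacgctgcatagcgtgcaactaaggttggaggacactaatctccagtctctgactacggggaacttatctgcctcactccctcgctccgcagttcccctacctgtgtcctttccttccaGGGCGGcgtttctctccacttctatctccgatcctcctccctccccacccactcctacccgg
The capitals in Npy1r are a match to the AP-1 letters, and those in Npy2r a match to the GC box. Of all 32851 mouse promoters of this length in the table, 6.75% hold the AP-1 letters and 32.7% the GC box. The AP-1 letters were in 1, the TATA letters (12.4% of all promoters) in 1 and the GC box in 5 of the 14 promoters listed for 8 of the receptor genes, while the full cAMP response element (1.55% of all promoters) and its core (17.8%) were in 0 of these 14. The 8 genes were all but Oprk1 and Galr1, and so include Gabbr2, whose promoter holds the GC box.

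The classical opioid receptors gave signals at or near background in every pool. Oprm1, the receptor for morphine and the main target of opioid analgesics, had leading probe set signals of 25.3 and 14.5 in L6-R, 28.2 and 12.4 in L3-S, and 1.2 and 20.7 in L3-B. None of its 4 probe sets went above 32 in any array, so no order of the pools can be read from it. Oprd1, the delta receptor, which binds enkephalins, stood at 12 and 11 in L6-R, 32.1 and 2.5 in L3-S, and 41.7 and 26.4 in L3-B. It was above 32 in 2 of 6 arrays, and L6-R differed from L3-B by -0.59 ± 0.26 log2 with no filter on genes (limma adjusted p = 0.342). Oprk1, the dynorphin receptor, stood at 29.1 and 20.8 in L6-R, 28.0 and 15.4 in L3-S, and 33.1 and 48.6 in L3-B. Both L3-B values of Oprk1 exceeded every DiI value, but with no filter neither L6-R (-0.35 ± 0.23, adjusted p = 0.559) nor L3-S (-0.44 ± 0.23, adjusted p = 0.676) passed against L3-B. These low signals bound what the probe sets could show and do not show that the receptors were absent.

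Oprl1, the receptor for nociceptin, was the member of the opioid receptor family with signals clearly above background. Its leading probe set gave 176.2 and 172.0 in L6-R, 231.2 and 126.0 in L3-S, and 218.5 and 281.3 in L3-B. Both L6-R values lay below both L3-B values, while the L3-S values fell on either side of them. The differences were -0.44 ± 0.28 log2 for L6-R against L3-B (95% interval -1.09 to 0.21, limma adjusted p = 0.425), -0.46 ± 0.28 for L3-S against L3-B (-1.11 to 0.19, adjusted p = 0.704) and 0.02 ± 0.28 for L6-R against L3-S (-0.64 to 0.67, adjusted p = 0.987). None passed the threshold of 0.05. Its other probe sets were dimmer and disagreed on the big pools: 1422099_a_at was at 1.9 in L3-B big, against 58.4 in L3-B medium to small.

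Npy1r, the Y1 receptor for neuropeptide Y, was highest in L6-R, and its difference from L3-B passed the threshold when all genes were tested. Its leading probe set gave 72.3 and 113.4 in L6-R, 26.1 and 41.8 in L3-S, and 6.0 and 4.2 in L3-B. Both L6-R pools lay above the other 4, of which only L3-S medium to small exceeded 32, so no order of L3-S big and L3-B can be read. Npy1r was too dim on average (6.06 log2, where the tested genes began at 6.41) for the upper 50% of genes that were tested. When all 18193 genes were tested with no filter, it was higher in L6-R than in L3-B by 1.73 ± 0.22 log2 (95% interval 1.20 to 2.26, limma adjusted p = 0.0163), a 3.32-fold difference on that scale, with 1.46 in the big and 2.01 in the medium to small pools. In that test 2.51% of genes passed and 1.68% rose.

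In the same test Npy1r in L6-R exceeded L3-S by 0.91 ± 0.22 (adjusted p = 0.164), and in L3-S it exceeded L3-B by 0.82 ± 0.22 (adjusted p = 0.328). Neither passed, as 0.588% and 0.077% of genes did. The call in L6-R against L3-B was lost without L3-B medium to small (1.49, adjusted p = 0.0804), without L6-R big (1.90, adjusted p = 0.124) and without L6-R medium to small (1.56, adjusted p = 0.188). It was also lost with a pseudocount of 1 (3.93, adjusted p = 0.201) or a larger one (0.72, adjusted p = 0.0732) and with the mean of both probe sets (0.62, adjusted p = 0.235). The other Npy1r probe set, 1426054_at, was under 32 in every array, at 11.6 and 1.4 in L6-R, 0.9 and 25.2 in L3-S, and 22.2 and 21.0 in L3-B.

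Markers of other cells also differed in that comparison. Of 13 tested glial markers 6 rose in L6-R against L3-B and 0 fell (median 1.53, against 0.02 over all genes tested). Over all genes tested, 7.51% passed there. Among the 6 were Apoe (2.28, limma adjusted p = 0.0013), Mbp (2.13, adjusted p = 0.0139) and Ncam1 (3.07, adjusted p = 0.00162), which neurons express as well. Sox10 and Mal, also among the 6, were tested through their L6-R signals. Outside L6-R, Sox10 stood at 7 to 105 and Mal at 32 to 66, under the limit of 6.41 log2 on average. Of 13 connective tissue and vessel markers with a probe set, only 4 were bright enough to be tested. Of these 4, 3 rose and 0 fell (median 1.43), namely Dcn, Rgs5 and Col1a2. The summed signal of all 13 was 1187 and 2076 in L6-R, 1500 and 1612 in L3-S, and 507 and 388 in L3-B. Of the smooth muscle markers, Acta2 was at 101 and 155 in L6-R, 96 and 26 in L3-S, and 33 and 51 in L3-B, and Tagln at 1 and 29 in L6-R, 4 and 11 in L3-S, and 2 and 1 in L3-B. Of the endothelial markers, Pecam1 was at 1 and 25 in L6-R, 4 and 6 in L3-S, and 2 and 3 in L3-B, and Cldn5 at 29 and 120 in L6-R, 26 and 30 in L3-S, and 40 and 20 in L3-B. Acta2, Cldn5, Dcn and Col1a2, like Npy1r, were highest in L6-R medium to small, as were Tagln and Pecam1 at signals under 32. Rgs5 peaked elsewhere: L3-S medium to small gave 977 and L3-S big 824, while L6-R medium to small reached 420 and L6-R big 179. Its L6-R minus L3-S difference of -1.59 did not pass (limma adjusted p = 0.0721). The part of the other markers in the Npy1r difference was not tested.

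**Figure D1:**
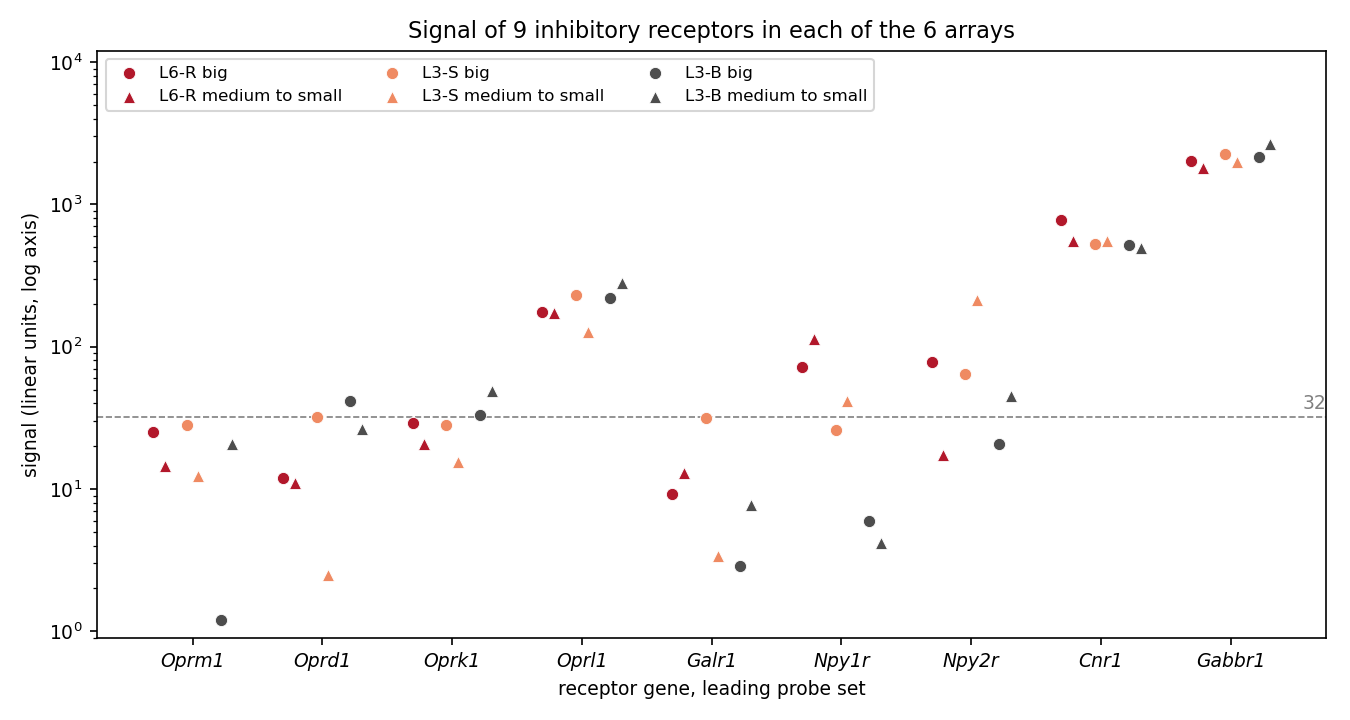
Signal of the leading probe set of 9 inhibitory receptors (vertical log axis, linear signal units) in each array, with L6-R in red, L3-S in orange and L3-B in grey, circles for big and triangles for medium to small pools, and a dashed line at 32. Npy1r is at 72.3 and 113.4 in L6-R, against 6.0 and 4.2 in L3-B, with both L6-R values above the other 4, and Npy2r peaks at 213.3 in L3-S medium to small.

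Npy2r, the Y2 receptor, which acts on nerve terminals, had its highest signal in a single L3-S pool and no difference between codes past the threshold over all 6 arrays. Its only probe set gave 77.5 and 17.4 in L6-R, 64 and 213.3 in L3-S, and 20.8 and 44.7 in L3-B. The L3-S medium to small pool was the highest of the 6, and both L3-S values exceeded both L3-B values. The difference for L3-S against L3-B was 1.27 ± 0.49 log2 (95% interval 0.15 to 2.39, limma adjusted p = 0.392), and with no filter on genes the interval was -0.01 to 2.55 (adjusted p = 0.57). For L6-R against L3-S it was -1.06 ± 0.49 (-2.18 to 0.06, adjusted p = 0.341), made up of 0.19 in the big and -2.31 in the medium to small pools. For L6-R against L3-B it was 0.21 ± 0.49 (-0.91 to 1.33, adjusted p = 0.861). With a mean of 6.48 log2 it lay just inside the tested genes, which began at 6.41, and without its highest array the mean was 6.19, outside them.

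Single arrays decided what Npy2r showed. L3-S against L3-B passed without L3-S big (2.10, adjusted p = 0.0109) and without either L6-R array (1.27, adjusted p = 0.0401), and stood at 0.44 at its lowest with an array left out. L6-R against L3-S passed without L3-S big (-1.89, adjusted p = 0.018) and without L6-R big (-2.11, adjusted p = 0.00993), and stood at -0.01 at its other extreme. Galr1, a galanin receptor with an inhibitory action on sensory neurons, stood at 9.2 and 12.9 in L6-R, 31.3 and 3.4 in L3-S, and 2.9 and 7.7 in L3-B. None of its 3 probe sets exceeded 32 in any array.

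Cnr1, the CB1 receptor for endocannabinoids, was well above background in every pool and differed little between them. Its leading probe set gave 774.8 and 556.7 in L6-R, 527.6 and 552.7 in L3-S, and 517.4 and 496.6 in L3-B. The L6-R big pool stood apart at the top, and the other 5 lay between 496.6 and 556.7. The differences were 0.35 ± 0.24 log2 for L6-R against L3-B (95% interval -0.18 to 0.89, limma adjusted p = 0.439), 0.27 ± 0.24 for L6-R against L3-S (-0.27 to 0.81, adjusted p = 0.642) and 0.09 ± 0.24 for L3-S against L3-B (-0.45 to 0.62, adjusted p = 0.974). Without the L6-R big pool, L6-R exceeded L3-B by 0.13. The other Cnr1 probe set was also highest there, at 56.2, against 16.2 to 33.3 elsewhere.

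Gabbr1, the subunit of the GABA-B receptor that binds GABA and the drug baclofen, had even signals on its leading probe set and lower L6-R signals on the next. The leading probe set, 1455021_at, gave 2000.2 and 1786.4 in L6-R, 2251.5 and 1972.4 in L3-S, and 2161.9 and 2646.0 in L3-B. It differed by -0.33 ± 0.23 log2 for L6-R against L3-B (95% interval -0.87 to 0.20, limma adjusted p = 0.467), -0.15 ± 0.23 for L6-R against L3-S (-0.69 to 0.38, adjusted p = 0.812) and -0.18 ± 0.23 for L3-S against L3-B (-0.72 to 0.36, adjusted p = 0.916). The next brightest, 1437188_at, gave 88.0 and 137.3 in L6-R, 274.4 and 275.7 in L3-S, and 383.5 and 225.8 in L3-B. Both of its L6-R values lay under all others. With every probe set tested, its difference was -1.20 ± 0.30 for L6-R against L3-B (adjusted p = 0.186) and -1.11 ± 0.30 for L6-R against L3-S (adjusted p = 0.305), and neither passed.

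**Figure D2:**
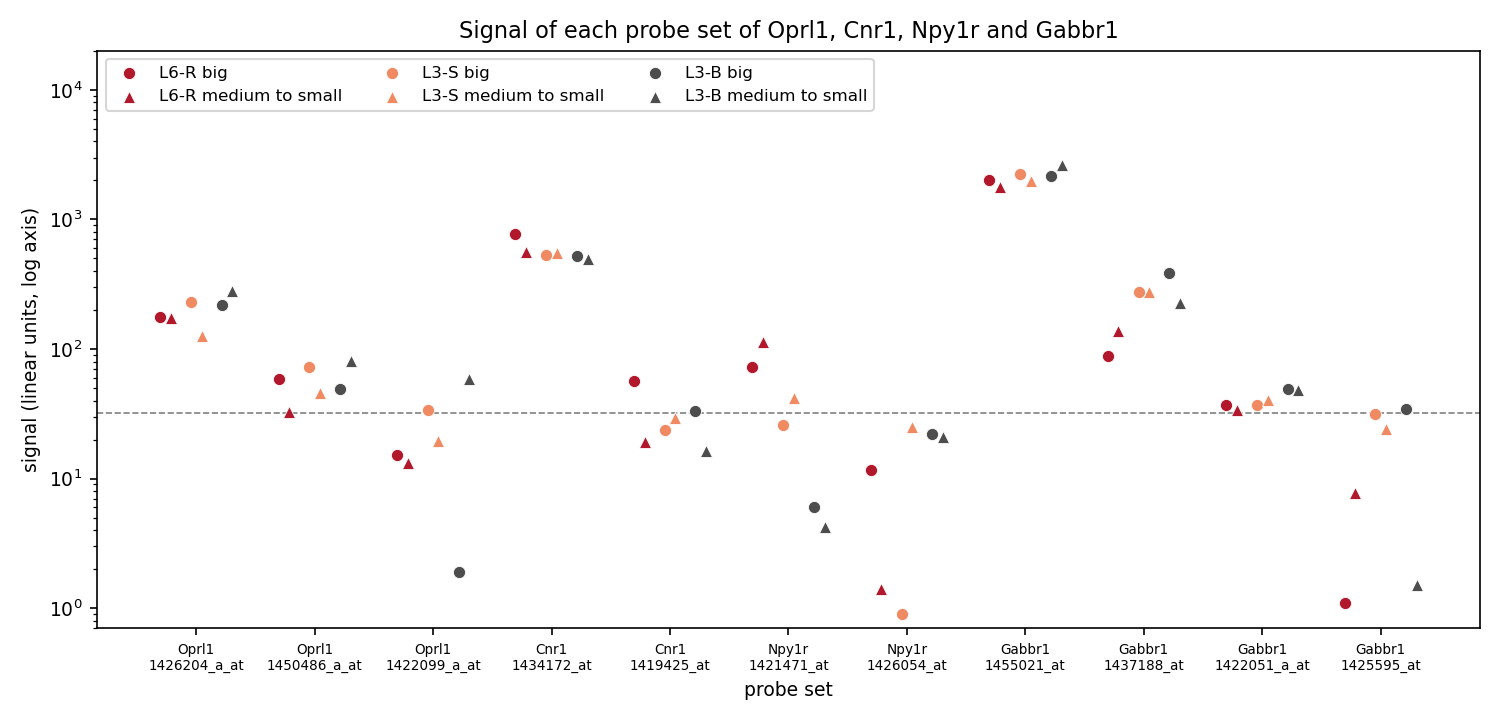
Signal (vertical log axis, linear units) of every probe set of Oprl1, Cnr1, Npy1r and Gabbr1 in each of the 6 arrays, with colours for the code, shapes for the size class and a dashed line at 32. The Gabbr1 probe set 1437188_at is lower in L6-R (88.0 and 137.3) than in the other arrays (225.8 to 383.5), while 1455021_at lies between 1786.4 and 2646.0 throughout.

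Over the 22 probe sets, 6 were above 32 in all 6 arrays, 7 in some and 9 in none. Those above 32 throughout were 3 of Gabbr1, 2 of Oprl1 and 1 of Cnr1. The tested upper 50% of genes held 4 of the receptors: Oprl1, Cnr1, Npy2r and Gabbr1. None of these passed in any of the 4 comparisons. Among all 9097 genes tested, 7.51% passed in L6-R against L3-B, 3.18% in L6-R against L3-S, 1.02% in L3-S against L3-B and 0% in big against medium to small. With 4 receptors tested, 0 calls do not set them apart from all genes. At an unadjusted p under 0.05 in limma, 1 of the 4 passed in L3-S against L3-B (Npy2r; 10.2% of genes), whose interval with no filter holds 0, and 0 passed in L6-R against L3-B (21.6%), in L6-R against L3-S (15.6%) and by size (3.52%).

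By leading probe sets, and with signals under background included, 3 of 9 receptors lay higher in both L6-R pools than in both L3-B pools (Cnr1, Npy1r and Galr1; 22.4% of all genes) and 4 lay lower (Oprd1, Oprk1, Oprl1 and Gabbr1; 21.5%). Both L6-R pools exceeded both L3-S pools for 2 receptors (Cnr1 and Npy1r; 19.9% of genes) and lay under them for 0 (25.6%). Both L3-S pools exceeded both L3-B pools for 3 (Cnr1, Npy1r and Npy2r; 22.6%) and lay under them for 1 (Oprk1; 14.4%). L6-R and L3-S were set against the same L3-B arrays. The median difference of the 9 receptors was 0.21 for L6-R against L3-B and 0.09 for L3-S against L3-B, against 0.00 and 0.04 over all genes. It rested in part on values that the background does not resolve.

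No receptor passed the threshold between big and medium to small pools. The differences, big minus medium to small, over 3 arrays each were 0.15 ± 0.23 for Oprl1 (95% interval -0.38 to 0.68), 0.15 ± 0.19 for Cnr1 (-0.29 to 0.59), 0.02 ± 0.19 for Gabbr1 (-0.42 to 0.46) and -0.25 ± 0.40 for Npy2r (-1.16 to 0.66), each with a limma adjusted p of 0.998. Npy1r differed by -0.25 ± 0.18 with no filter (adjusted p = 0.989). No receptor had all 3 big pools on one side of all 3 medium to small pools, as 3.85% of genes had with the big pools higher and 3.24% with them lower.

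**Figure D3:**
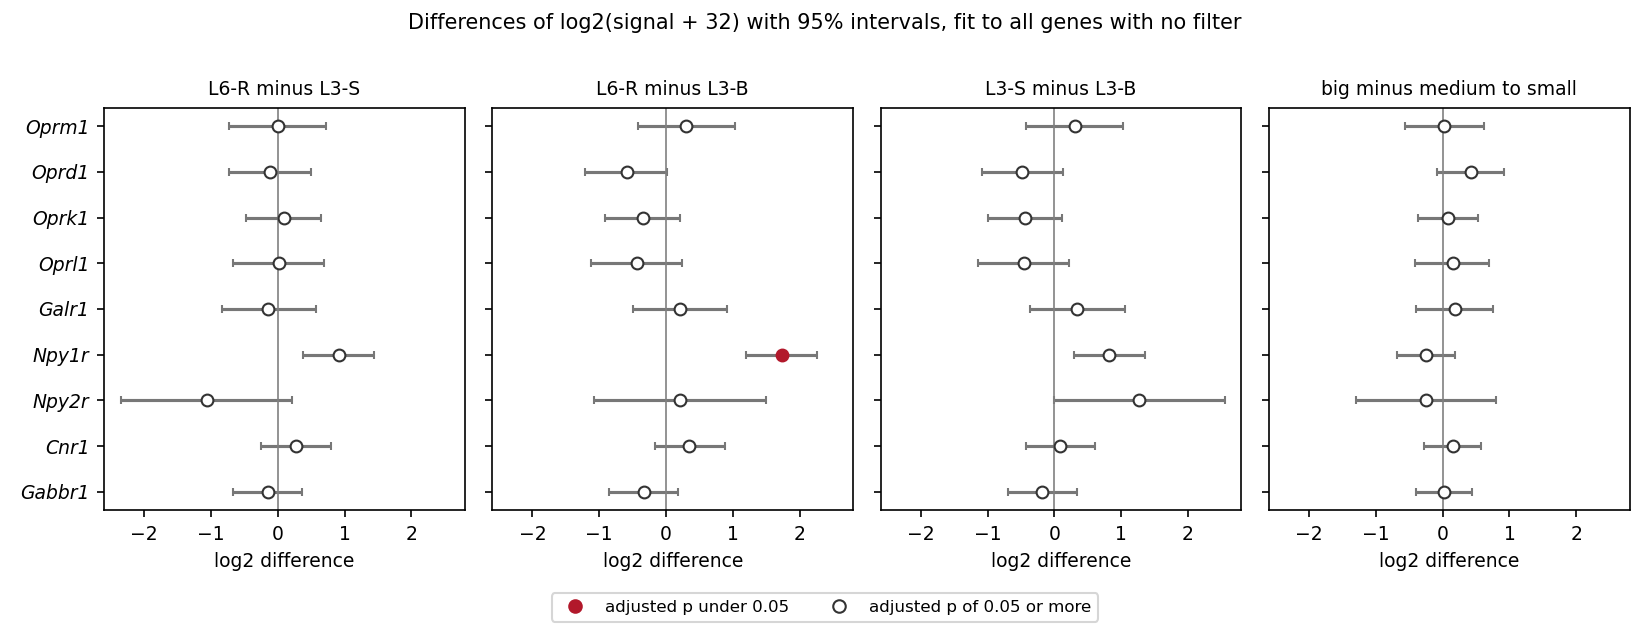
Differences of log2(signal + 32) of 9 receptors (horizontal axis) with 95% intervals in the fit to all genes with no filter, in the 4 comparisons; the filled red point has an adjusted p under 0.05. Npy1r in L6-R minus L3-B, at 1.73, is the point past the threshold, and the Npy2r intervals are the widest.

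The peptide ligands of these receptors were uneven across codes, with the precursors of neuropeptide Y, galanin and the enkephalins high in L6-R. Npy signals reached 849 and 1368 in L6-R, against 25 and 17 in L3-S, and 22 and 31 in L3-B. It rose in L6-R by 4.24 ± 0.26 log2 against L3-B (limma adjusted p = 0.00017) and differed by -0.15 between L3-S and L3-B. Its receptor Npy1r was also highest in L6-R, while Npy2r was highest in an L3-S pool. Gal, the galanin precursor, stood at 216 and 158 in L6-R, 46 and 31 in L3-S, and 29 and 19 in L3-B. It rose by 1.97 ± 0.22 against L3-B (adjusted p = 0.00141), whereas no probe set of its receptor Galr1 left the background. The Npy and Gal calls in L6-R held with each of the 6 arrays left out.

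Penk, the enkephalin precursor, was chosen after its values were seen. It stood at 107 and 138 in L6-R, 6 and 21 in L3-S, and 23 and 1 in L3-B. Both L6-R pools were far above the rest. Too dim on average for the tested genes, it was higher in L6-R than in L3-B by 1.84 ± 0.32 with no filter (adjusted p = 0.0418) and than in L3-S by 1.78 ± 0.32 without passing (adjusted p = 0.0829). Without L6-R medium to small the first was 1.64 (adjusted p = 0.32), without L6-R big 2.05 (adjusted p = 0.212), and without L3-B medium to small 1.28 (adjusted p = 0.115). The call against L3-B was also lost with a pseudocount of 1 (4.05, adjusted p = 0.401) or a larger one (0.84, adjusted p = 0.0895), with the mean of probe sets (adjusted p = 0.0542) and with every probe set (adjusted p = 0.0821). The delta and mu receptors, which enkephalins bind, were at background in these pools (12 and 11, and 25.3 and 14.5).

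The other ligand precursors and enzymes showed less. Pdyn, the dynorphin precursor, stayed at 3 to 13, Pnoc, the nociceptin precursor, at 2 to 20, and Pomc at 15 to 72. Gad1 and Gad2, which make GABA, stayed at 1 to 33. Of the 6 tested members of the ligand list, 2 rose (Npy and Gal) and 0 fell in L6-R against L3-B and against L3-S. None passed in L3-S against L3-B or by size. Of all genes tested, 7.51%, 3.18% and 1.02% passed in these 3 code comparisons. The list's medians there were 0.39, 0.62 and -0.10, against 0.02, -0.01 and 0.03 over all genes tested. Outside L6-R, Npy stood at 17 to 31 and Gal at 19 to 46, so both could be tested through their L6-R signals. Dagla, which makes the endocannabinoid 2-AG that acts on Cnr1, stood at 205 and 216 in L6-R, 121 and 147 in L3-S, and 338 and 298 in L3-B. L3-S minus L3-B was -1.07 ± 0.23 log2 and did not pass (adjusted p = 0.0784).

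**Figure D4:**
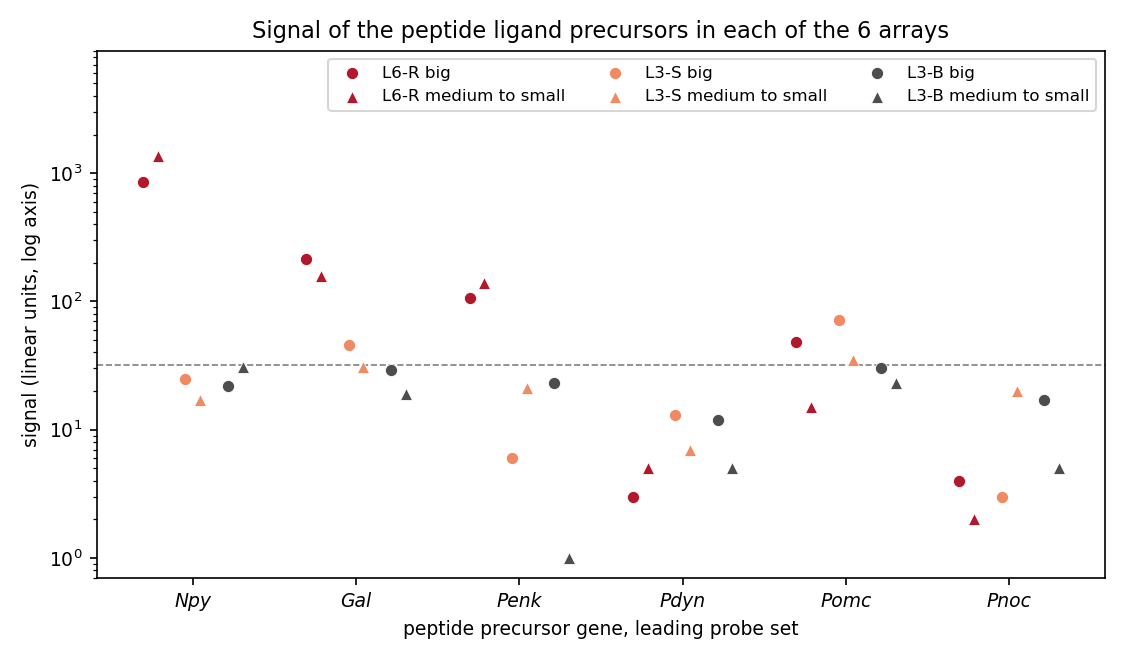
Signal (vertical log axis, linear units) of 6 precursors of peptide ligands of these receptors in each array, with colours for the code, shapes for the size class and a dashed line at 32. Npy (849 and 1368), Gal (216 and 158) and Penk (107 and 138) are higher in both L6-R arrays than in the other 4, while Pdyn and Pnoc stay under 32.

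The Gi/o alpha subunits were above background in every pool and none of the 5 passed in any comparison. Of all genes tested, 7.51% passed in L6-R against L3-B, 3.18% in L6-R against L3-S, 1.02% in L3-S against L3-B and 0% by size. With 5 subunits tested, 0 calls do not set them apart from all genes. Gnao1, the subunit most used by neuronal inhibitory receptors, stood at 1809 and 2066 in L6-R, 1114 and 1210 in L3-S, and 1292 and 1314 in L3-B. It was higher in L6-R by 0.72 ± 0.22 log2 against L3-S (limma adjusted p = 0.137) and 0.56 ± 0.22 against L3-B (adjusted p = 0.183). Against L3-B the L6-R differences were -0.19 for Gnai1, 0.35 for Gnai2, 0.36 for Gnai3 and 0.42 for Gnaz. The list's median there was 0.36, against 0.02 over all genes tested.

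Of 10 tested beta and gamma subunits, 2 rose in L6-R against L3-B (7.51% of all genes passed) and 1 in L6-R against L3-S (3.18%). In L3-S against L3-B 1 rose (1.02%), and 0 fell in these comparisons. The beta subunit Gnb4 was higher in both DiI codes than in L3-B. It stood at 365 and 280 in L6-R, 216 and 231 in L3-S, and 79 and 52 in L3-B. It rose by 1.87 ± 0.24 in L6-R (adjusted p = 0.00257) and by 1.41 ± 0.24 in L3-S (adjusted p = 0.0336) against the same L3-B arrays, and its other 2 probe sets gave 1.72 and 1.80 for L6-R, with 1.33 and 1.00 for L3-S. The L3-S call was lost without L3-B medium to small (1.27, adjusted p = 0.0824) and without L3-S medium to small (1.18, adjusted p = 0.152). Gnb2 rose by 1.14 in L6-R against L3-B (adjusted p = 0.024). Gng8 was higher in L6-R than in L3-S by 1.04 (adjusted p = 0.0462), but L6-R minus L3-B was only 0.08. Gng8 was lowest in L3-S, at 241 and 254, while its L6-R and L3-B signals ranged from 461 to 616. Gnb2 was lost without either L6-R array (big 1.12, medium to small 1.16) or without L3-B big (0.92), and Gng8 without any of the 4 L6-R and L3-S arrays (0.92 to 1.16).

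Kcnj3, the GIRK1 subunit of the potassium channels that Gi/o receptors open, was lowest in L6-R. It stood at 35 and 60 in L6-R, 125 and 116 in L3-S, and 182 and 148 in L3-B. It fell by 1.32 on the log2 scale in L6-R against L3-B (SE 0.25, adjusted p = 0.0156), a call lost without L6-R big (-1.01, adjusted p = 0.237), and its -0.96 against L3-S did not pass (adjusted p = 0.0899). Its dimmer probe sets ranged from -0.51 to 0.25. The other GIRK subunits were near background, Kcnj6 at 3 to 35, Kcnj9 at 4 to 31 and Kcnj5 at 2 to 31. Of the presynaptic calcium channels on the list, Cacna1b, the N-type channel, stood at 1006 and 805 in L6-R, 585 and 636 in L3-S, and 551 and 545 in L3-B, with 0.54 against L3-S (adjusted p = 0.302).

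The adenylyl cyclases make cAMP, and several of them, though not all, are inhibited by Gi/o alpha subunits. Of 7 tested, 1 rose and 2 fell in L6-R against L3-B (7.51% of all genes passed), 0 rose and 2 fell in L6-R against L3-S (3.18%), and 1 rose and 0 fell in L3-S against L3-B (1.02%). The list's medians were 0.56, -0.51 and 0.13, against 0.02, -0.01 and 0.03 over all genes tested. Adcy1, a calcium-stimulated cyclase, stood at 150 and 232 in L6-R, 610 and 579 in L3-S, and 645 and 693 in L3-B. Its dimmer probe set gave -0.41 for L6-R against L3-B and -0.78 against L3-S. The leading one fell by 1.67 against L3-B (limma adjusted p = 0.00458) and by 1.51 against L3-S (adjusted p = 0.015), with both L6-R values under all others. Without L6-R big these were -1.41 (adjusted p = 0.0503) and -1.25 (adjusted p = 0.168).

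Adcy8, also stimulated by calcium, was high in L3-S. It stood at 39 and 53 in L6-R, 130 and 224 in L3-S, and 22 and 13 in L3-B. It rose by 2.05 ± 0.27 in L3-S against L3-B (limma adjusted p = 0.0144) and fell by 1.39 in L6-R against L3-S (adjusted p = 0.0332). Its mean of 6.52 log2 lay just inside the tested genes, which began at 6.41. It was tested through its L3-S signals, as its L6-R and L3-B signals alone lay under that limit on average. The call against L3-S was lost without L3-S medium to small (-1.05), L6-R big (-1.36) or L6-R medium to small (-1.42). Adcy5 stood at 174 and 199 in L6-R, 87 and 130 in L3-S, and 36 and 28 in L3-B, and rose by 1.78 ± 0.24 in L6-R against L3-B (adjusted p = 0.00363), while its other probe sets gave -0.51 to 0.93. Adcy7, a cyclase that beta-gamma dimers stimulate, fell by 1.36 there (adjusted p = 0.0231), lost without L3-B big (-1.17) or L6-R medium to small (-1.10). Its dimmer probe sets gave -0.65 and 0.28 in the same comparison.

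Among proteins that end receptor signalling, calls were made for the RGS proteins, which speed the shut-off of Gi/o alpha subunits. Of 13 tested, 1 rose and 1 fell in L6-R against L3-B (7.51% of all genes passed), 0 rose and 1 fell in L6-R against L3-S (3.18%), and 1 rose and 0 fell in L3-S against L3-B (1.02%). Rgs6 fell in L6-R. It stood at 4 and 14 in L6-R, 136 and 65 in L3-S, and 111 and 218 in L3-B. It differed by -2.21 ± 0.36 against L3-B (limma adjusted p = 0.00773) and -1.64 ± 0.36 against L3-S (adjusted p = 0.0487). Rgs6 had a mean of 6.64 log2, where the tested genes began at 6.41. It was tested through its L3-B signals, as its L6-R and L3-S signals alone lay under that limit on average. Its dimmer probe set gave -0.28 and -0.21. The call against L3-S was lost without L3-S big (-0.96) and without either L6-R array (big -1.47, medium to small -1.82). Rgs5, which is also on the vessel marker list as a gene of pericytes, rose by 3.32 in L3-S (adjusted p = 0.00938) and 1.73 in L6-R (adjusted p = 0.0314) against L3-B. Without L6-R medium to small the L6-R rise was 1.05, and without L3-B medium to small 1.02, neither past the threshold. None of 4 tested receptor kinases and arrestins passed, the receptor kinase Grk6 standing at 0.80 in L6-R against L3-B (adjusted p = 0.0958), nor did any of 6 receptor-associated proteins.

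**Figure D5:**
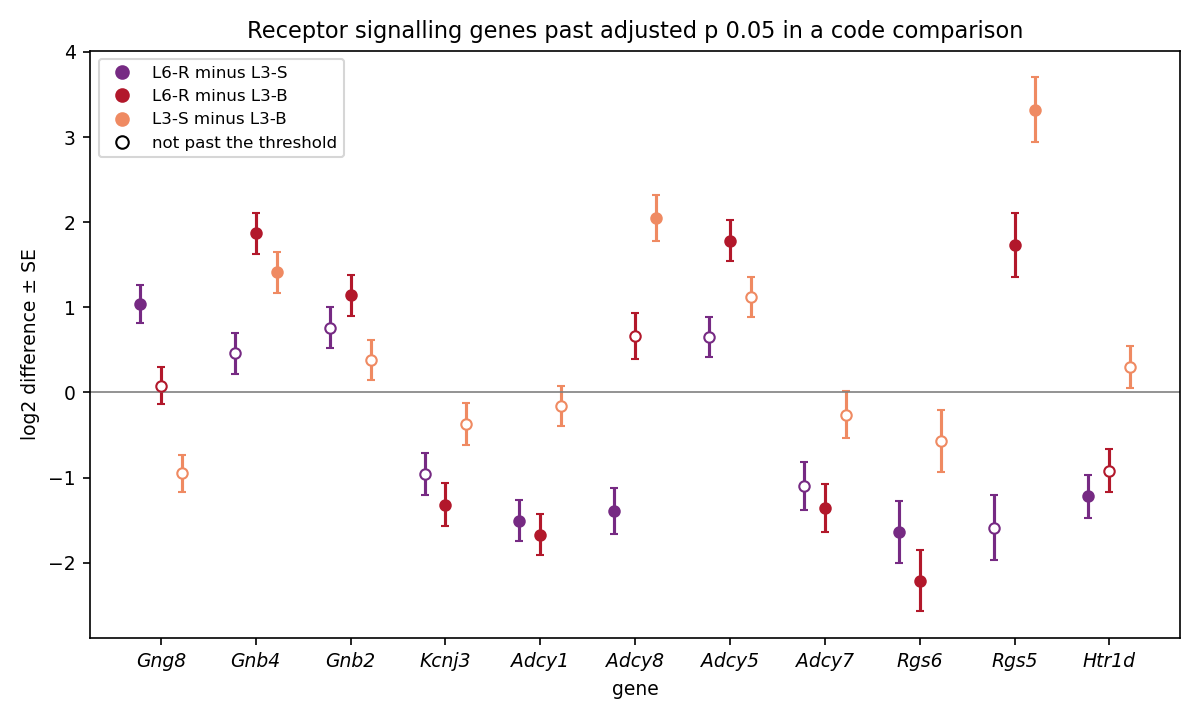
Log2 differences ± SE (vertical axis) of the 11 genes of the signalling lists and other Gi/o-coupled receptors that passed an adjusted p of 0.05 in a code comparison; filled points passed and open points did not. Gnb4 and Rgs5 are higher in both DiI codes than in L3-B, and Adcy1, Kcnj3 and Rgs6 are lowest in L6-R.

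Other Gi/o-coupled receptors were mostly dim as well. Of 31 with a probe set, 6 were among the tested genes. Htr1d, a serotonin receptor that triptans act on, stood at 220 and 359 in L6-R, 738 and 665 in L3-S, and 533 and 598 in L3-B. It fell by 1.22 in L6-R against L3-S (SE 0.25, limma adjusted p = 0.0425), a call lost without L3-S big (-0.95), L6-R big (-0.91) or L6-R medium to small (-1.53). Htr1d was the 1 of 6 that passed in that comparison, where 3.18% of all genes tested did. None of the 6 passed in L6-R against L3-B (7.51% of genes), in L3-S against L3-B (1.02%) or by size (0%). Htr1b, at 380 and 526 in L6-R, 608 and 409 in L3-S, and 710 and 1270 in L3-B, differed by -1.04 between L6-R and L3-B (adjusted p = 0.101), and Grm7, a metabotropic glutamate receptor, by -0.52 between L3-S and L3-B (adjusted p = 0.484).

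Markers of neuron types also differed between the codes. Of 10 tested markers of peptidergic nociceptors, 7 rose and 0 fell in L6-R against L3-B (median 2.36), 5 rose and 1 fell in L6-R against L3-S (1.32), and 3 rose and 0 fell in L3-S against L3-B (0.95). Of 8 tested markers of non-peptidergic and C-fibre neurons, 4, 1 and 2 rose in these comparisons and 0 fell. Of 12 tested markers of large myelinated-fibre neurons, 5 fell and 1 rose in L6-R against L3-B, 3 fell in L6-R against L3-S, and 1 rose in L3-S against L3-B. Over all genes tested, 7.51%, 3.18% and 1.02% passed in these comparisons, with medians of 0.02, -0.01 and 0.03. Genes were tested by their mean over all 6 arrays, so markers high in L6-R alone could enter through it. Outside L6-R, Trpa1 stood at 2 to 56 and Gal at 19 to 46. Such entries can raise the counts and medians among tested markers, and the same can hold for the other lists. Trpv1, the capsaicin receptor, stood at 616 and 392 in L6-R, 108 and 56 in L3-S, and 19 and 20 in L3-B. As for Npy1r, both L6-R values of Trpv1 were the highest. The part of such neuron types in the receptor values was not tested.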

How the data were processed

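Total RNA from pools of 20 or 50 neurons was hybridised to 6 arrays. The authors deposited linear signal intensity per probe set. The mean of each array after trimming 2% at each end was 150, so the values were taken as already scaled. The sources used here do not say how probe sets were summarised and scaled. Of 45037 probe sets, 34945 carried 1 gene symbol in the platform annotation, 932 several and 9160 none; 64 control probe sets were left out. Each of 18193 genes was represented by its probe set of highest mean log2(signal + 32), and the upper 50% (9097 genes, minimum 6.41) were tested. R 4.3.3 with limma 3.58.1 (lmFit and eBayes, two-sided) fitted code and size class as additive terms to all 6 arrays (2 residual and 6.46 prior degrees of freedom), with Benjamini-Hochberg adjustment. The model assumes that codes differ alike in both size classes. The fit was tested on simulated data. All receptors were named. From each other list, every tested gene past the threshold, otherwise the 2 with the smallest p, up to 6 per comparison, could be named. The receptors and lists were chosen with earlier results of these data known. Alternatives were other pseudocounts, filters, normalization, probe set rules, variance models, array weights, the Actb ratio as a covariate, fewer arrays and fewer terms.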

Additional observations from a re-analysis of the deposited data

Results flagged for a closer look

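Npy2r differed in opposite directions between matched pools. In L6-R minus L3-B it was 1.05 log2 in the big pools and -0.64 in the medium to small pools. In big minus medium to small it was 1.15 in L6-R and -1.35 in L3-S. Each value compares 1 array with 1 other, and the difference between them was not tested.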

How the results depend on the processing

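Of 9097 genes tested, 289 passed in L6-R against L3-S. With a pseudocount of 1 there were 137, with no filter 107, in the upper 25% of genes 115, with array weights 633, after adding the Actb ratio as a term 994, with only these codes 653, and 140 to 653 with an array left out. In L6-R against L3-B 683 passed, 299 in the upper 25%, 1590 with the Actb ratio, and 356 to 995 with an array left out. In L3-S against L3-B 93 passed, 46 with a pseudocount of 1, 14 with no filter, 21 in the upper 25%, 41 with the mean of probe sets, 48 with array weights, 512 with the Actb ratio, 171 with only these codes, and 61 to 202 with an array left out. By size 0 passed (320 at an unadjusted p under 0.05), 2 with the Actb ratio and 0 to 1 with an array left out.

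The count of receptors past the threshold was 0 in each comparison. It was 1 (Npy1r) in L6-R against L3-B with no filter and with every probe set, 1 (Npy2r) in L3-S against L3-B with only these codes, and 0 to 1 in L6-R against L3-S and in L3-S against L3-B with an array left out (Npy2r). Npy1r in L6-R against L3-B with no filter was 3.93 with a pseudocount of 1, 0.72 with a larger one, 0.62 with the mean of probe sets, and 1.49 to 1.97 with an array left out; these combinations of no filter with another choice were added after the data were seen. Small differences changed sign. Oprl1 in L6-R against L3-S was -0.01 with quantile normalization, -0.18 with the mean of probe sets and -0.43 to 0.46 with an array left out. By size Oprl1 was -0.01 with the mean of probe sets and -0.15 to 0.38 with an array left out, Gabbr1 -0.01 with quantile normalization and -0.06 to 0.17, Cnr1 0.00 to 0.26, and Npy2r 0.29 with array weights and -0.95 to 0.31. With an array left out, Npy2r in L6-R against L3-B was -0.84 to 1.26, Cnr1 in L3-S against L3-B -0.07 to 0.25 and Gabbr1 there -0.41 to 0.05. The cause was not tested. The size class term already compares the codes within each size class, and the labels give no replicate numbers for a further block. Signals near 32 limit what can be shown for Oprm1, Oprd1, Oprk1 and Galr1.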

Other observations

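The tested genes most like each receptor over the 6 arrays, by Pearson's r of log2(signal + 32) with 6 points, are given as a description. Gabbr1 was most like Hprt (0.997), Atrn (0.992) and Necab3 (0.985), whose signals were also highest in L3-B medium to small and lowest in L6-R medium to small. Hprt stood at 2347 and 2095 in L6-R, 2579 and 2335 in L3-S, and 2480 and 3036 in L3-B. Cnr1 was most like Kifap3 (0.987), Ebf3 (0.985) and Ppp2r5e (0.985), all highest in L6-R big, with Kifap3 at 4965 there. Oprl1 was most like Pigz (0.992), Dnaja2 (0.989) and Cep170 (0.981), all lowest in L3-S medium to small. Npy2r was most like Tmem130 (0.981), Madd (0.976) and Wbp4 (0.976), all highest in L3-S medium to small. The 6 arrays share their scaling, and the genes are the highest among 9097 genes searched, so no test is attached to it.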
